A study of Mus musculus with 3 samples.

Results

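Crabp1 and Stra6 are 2 of the 296 genes whose RNA molecules were counted cell by cell in sections of mouse embryos, and they were chosen by name, as the retinoid binding protein and retinoid receptor of the panel. A cell was kept when it held at least 10 counts over the 296 genes, and a kept cell with at least 1 count of a gene is said to hold that gene. In the E15.5 section 31451 of 195915 kept cells held Crabp1, 18270 held Stra6 and 4003 held both. In the E9.5 sections 321 of 830 and 2539 of 6334 kept cells held Crabp1, 37 and 997 held Stra6, and 20 and 536 held both.

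The later stage was 1 sagittal section of a whole E15.5 embryo, and the earlier stage was 2 sagittal sections from 2 different E9.5 embryos, called section 1 and section 2 here. All 3 embryos were wild-type mice with no treatment named in the labels. The assay was MERFISH, in which each RNA species is read as a barcode over successive rounds of imaging on tissue, run on a Vizgen MERSCOPE with a design of 300 genes, 4 of them read by sequential staining. No cell identifier was shared between sections (0 shared).

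Retinoic acid, made from vitamin A, is a diffusible signal that patterns the hindbrain, trunk, limbs and face of the embryo by way of nuclear receptors. Stra6 is the cell-surface receptor for retinol-binding protein and carries retinol into cells. Crabp1 is a small cytoplasmic protein that binds retinoic acid. It is a textbook label of hindbrain and migrating neural crest in the early embryo.

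The kept cells held 21227345 counts in the E15.5 section, against 68572 in E9.5 section 1 and 1034730 in E9.5 section 2. The median kept cell held 84 counts in the E15.5 section, and 61 and 128 in the E9.5 sections. Blank barcodes, which match no RNA, averaged 1.59 per 10000 panel counts at E15.5, and 2.39 and 1.49 at E9.5. In the E15.5 section 0.521% of kept cells lay in areas where the broadly expressed gene Gnas was under 100 per 10000 panel counts over a cell and its 20 nearest cells, against 53.0% and 45.0% in the E9.5 sections. In those E9.5 areas the Stra6 level was 0.213 and 0.362 times that in the other areas of the same E9.5 section, and the Crabp1 level was 1.28 and 0.581 times. Where stated, E9.5 levels are also given without these areas.

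Crabp1 had a lower level in the E15.5 section than in either E9.5 section, by a difference just outside the threshold of the test, and Stra6 did not differ between stages beyond the spread of the E9.5 sections. Levels are counts per 10000 panel counts, with exact Poisson 95% intervals that cover counting error only. Crabp1 stood at 31.2 per 10000 (31.0 to 31.5) in the E15.5 section, against 106 (98.5 to 114) and 116 (114 to 118) in the E9.5 sections. The E15.5 value lay below both E9.5 values, which lay close to each other. Stra6 stood at 17.6 per 10000 (17.4 to 17.8) in the E15.5 section, against 7.73 (5.79 to 10.1) and 19.1 (18.3 to 20) in the E9.5 sections. The E15.5 value of Stra6 lay between those of the E9.5 sections. Outside the areas of low Gnas the E9.5 levels were 94.8 and 137 per 10000 for Crabp1 and 11.5 and 25.1 for Stra6.

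**Figure D1:**
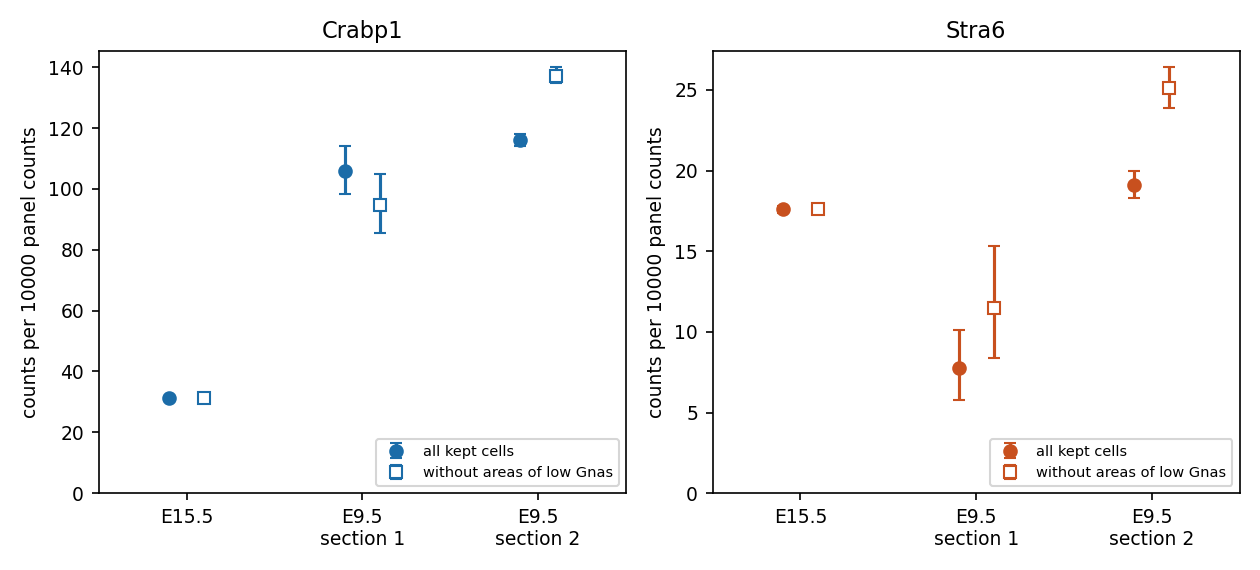
Levels of Crabp1 (left) and Stra6 (right) in the E15.5 section and the 2 E9.5 sections, in counts per 10000 panel counts on a linear axis from 0. Filled circles are all kept cells, open squares leave out areas of low Gnas, and bars are exact Poisson 95% intervals. Crabp1 was 31.2 at E15.5, below 106 and 116 at E9.5, while the E15.5 value of Stra6, 17.6, lay between 7.73 and 19.1.

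In edgeR's quasi-likelihood fit of the section sums over all 296 genes, Crabp1 was at 3143 counts normalised to library size (CPM) in the E15.5 section, against 11076 ± 947 (SD, n = 2) in the E9.5 sections. Its log2 change was -1.82 (SE 0.68) with an adjusted p of 0.0501 by edgeR, just outside the threshold of 0.05. DESeq2 gave -1.76 with an adjusted p of 3.82e-06, and across the alternative edgeR settings the adjusted p ran from 0.0501 to 0.251. Stra6 was at 1771 normalised CPM in the E15.5 section, against 1349 ± 834 (SD, n = 2) in the E9.5 sections, and its log2 change was 0.38 (SE 0.94) with an edgeR adjusted p of 0.864. Without the E9.5 areas of low Gnas, where 7.43% of genes passed, the log2 change of Stra6 was -0.15, and leaving out E9.5 section 1 gave -0.13. Of the 296 genes, 44 (14.9%) passed this test, 28 of them higher (9.46%) and 16 lower (5.41%) at E15.5. Upper-quartile scaling, which moved the median log2 change of all genes to 0.12 from -0.15 with TMM scaling, gave 22 higher and 5 lower. The fit had 1 E15.5 section, so the spread comes from the E9.5 sections alone. An exact permutation over the 3 sections could not go below p = 0.333.

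In the E15.5 section Stra6 was concentrated in a few cell populations. The cells were grouped into 31 clusters from the other 294 genes, so neither Crabp1 nor Stra6 shaped them. Cluster 12 (3820 cells) held 25.9% of all Stra6 counts at a level of 183 per 10000 (179 to 187). Among its leading genes by fold over other cells were Vtn, Pltp, Cdh5 and Foxd1. It carried the meningeal markers Foxd1 at 52.5 per 10000, against 6.97 in other cells, and Zic1 at 26.9, against 11.3. The third meningeal marker of the panel, Col15a1, stood at 10.7 per 10000 in cluster 12, against 21.6 in other cells. With 2 of the 3 meningeal markers raised, the cluster is left without a cell type name.

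The next Stra6 population was set apart by a nerve marker. Cluster 16 (2470 cells) held 10.3% of Stra6 counts at 81.5 per 10000 (79.0 to 84.1), and was led by Scn7a, a sodium channel gene of peripheral glia and some neurons, 60.5-fold above other cells. Rgs4, Egfl8, Spock2 and Casz1 followed in its gene list. The next clusters in order were 20 (65.1 per 10000, with Wnt4, Foxd1, Heyl and Wfdc2 among its leading genes), 24 (61.2) and 22 (59.2, led by Cldn5, Slco1c1, Rgs5, Kdr and Vtn). The intervals of these 3 overlapped with their neighbours in the order, so their order among themselves is not settled. Cluster 24 had a median of only 16 counts per cell. Cluster 22, whose genes Cldn5 and Slco1c1 are known from brain endothelium, had 25.6% of its nearest cells in neuron-like cluster 3, 20.6% in neuron-like cluster 6 and 13.2% in cluster 12.

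Stra6 was lower than the section level of 17.6 per 10000 in the clusters named neuron-like or endothelium-like and in the Car2-led cluster 2. Neuron-like clusters 3 and 6 stood at 3.74 and 3.75 per 10000, and the endothelium-like cluster 5 at 7.97. Unnamed clusters with such markers differed. Cluster 22, with Pecam1, Cdh5, Kdr, Emcn, Cldn5 and Etv2 raised, stood at 59.2. Clusters 16, 18 and 26, with the neuron marker Stmn2 raised, stood at 81.5, 25.4 and 17.9. Clusters 14, 17, 23, 27 and 30, with raised markers of both kinds, stood at 0.781 to 9.26, and cluster 24, also with both, at 61.2. Cells taken by neuron or endothelium markers, with no use of clusters, stood nearer to other cells or above them, at 15.1 against 18.3 and at 22.2 against 17.4, by the marker rule given further on. Cluster 2, led by the red-cell gene Car2, is given for comparison. The liver sinusoid markers Stab2, Oit3 and Lyve1 were also raised in it, and it was left without a cell type name. Of its 20541 cells, 1.27% held Stra6 and 0.798% held Crabp1, at a median of 43 counts per cell against 84 in the section. Whether these are stray counts was not tested, and clusters 25, 27, 29 and 31 had lower Stra6 levels, of 0 to 1.73 per 10000. Stra6 in clusters 12, 16, 20, 24 and 22 was at least 59.2 per 10000, against 2.49 in cluster 2.

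On the section, Stra6 lay in lines and small patches. The section was divided into 860 squares of 200 µm with at least 20 kept cells, and the 43 squares with the highest Stra6 level held 39.4% of Stra6 counts and 6.32% of all panel counts. By that share Stra6 ranked 24 of 278 genes, for which the median share was 14.4%. The largest patch was 15 adjoining squares at x 4.0 to 5.4 mm and y 4.6 to 6.4 mm. Its level was 129 per 10000, and 58.5% of its Stra6 counts came from cluster 12 and 19.9% from cluster 16. A second patch of 10 squares at x 2.0 to 2.4 mm and y 5.8 to 7.6 mm stood at 101 per 10000, with 62.9% of its Stra6 counts from cluster 12 and 27.9% from cluster 16. Both patches were narrow bands on the section. A compact patch of 2 squares at x 3.51 to 3.8 mm and y 0.800 to 0.997 mm reached 209 per 10000 and was richer in Thy1, Igfbp3, Prtg, Ednra and Nr2f2 than the rest of the section. There 61.1% of the Stra6 counts came from cluster 9 and 16.8% from cluster 20.

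**Figure D2:**
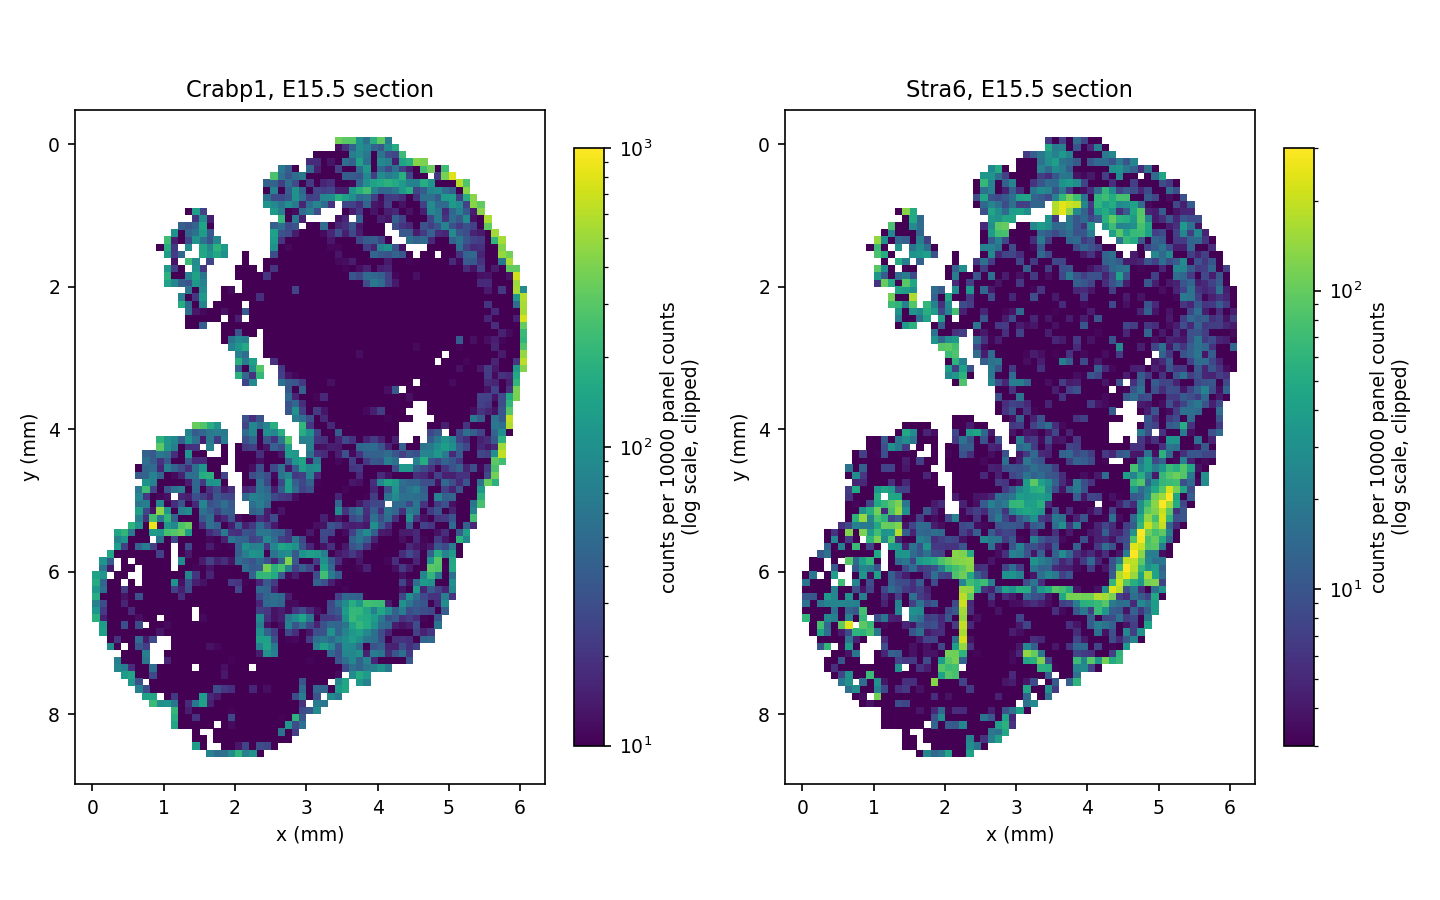
Maps of Crabp1 (left) and Stra6 (right) over the E15.5 section in squares, with x and y in mm as read from the file and colour giving counts per 10000 panel counts on a clipped log scale. Crabp1 was highest along the outer rim at high x. It stood at 299 in a patch near x 0.803 to 1.20 mm and y 5.20 to 5.58 mm. In a patch near x 3.60 to 4.00 mm and y 6.40 to 6.80 mm it stood at 188. The largest Stra6 patches were bands at x 4.0 to 5.4 mm and at x 2.0 to 2.4 mm, and the highest patch level of Stra6 was 209, near x 3.51 to 3.8 mm and y 0.800 to 0.997 mm.

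Crabp1 in the E15.5 section was less concentrated by squares than Stra6, and its patches lay at the outer rim, in a neuron-like population and among cells of cluster 13. The 43 squares richest in Crabp1 held 20% of its counts and 2.37% of all counts, a rank of 95 of 278 genes. The 43 squares richest in Crabp1 and the 43 richest in Stra6 shared 0 squares. Each pick was a small part of the 860 squares, so unrelated picks would also share few. Whether 0 is fewer than that was not tested. Over all 860 squares the levels of the genes had a Spearman correlation of 0.30. Around cells that held Crabp1 the 20 nearest cells averaged 82.5 per 10000 of Crabp1, against 20.1 around other cells, and the same comparison for Stra6 gave 65.0 against 11.1. For both genes, the cells that held it had more of it around them.

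Cells within 100 µm of the outer edge of the E15.5 section carried much of its Crabp1. The level was 240 per 10000 within 50 µm of the edge and 157 between 50 and 100 µm, and it lay between 22.0 and 30.8 in the deeper zones. The outermost 50 µm held 11.5% of Crabp1 counts and 1.5% of all counts. Stra6 ran the other way at the surface, at 8.50 per 10000 within 50 µm and between 14.6 and 24.3 deeper. Within 100 µm of the edge it also varied along the rim. It was 5.47 where x was above 3.07 mm and y below 4.25 mm, 15.6 where both were higher, and 7.88 and 18.1 at lower x. The rim was uneven: Crabp1 stood at 342 per 10000 where x was above 3.07 mm and y below 4.25 mm, at 164 where both were higher, and at 97.8 and 85.7 along the rim at lower x. That strip of rim made the largest Crabp1 patch, 18 squares at x 4.6 to 6.09 mm and y 0.230 to 3.20 mm, with a level of 340 per 10000 and 8.83% of Crabp1 counts. In it Nt5e, an ectonucleotidase gene, was 6.91-fold, Thy1 5.60-fold and Wnt4 4.89-fold above the rest of the section.

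**Figure D3:**
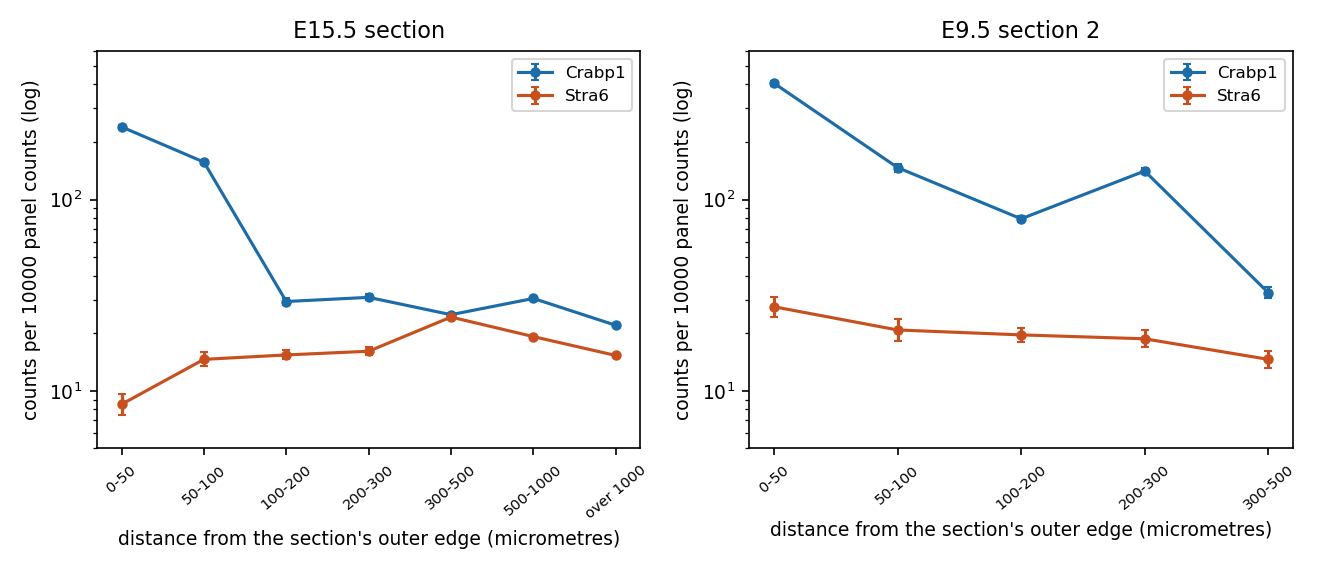
Levels of Crabp1 and Stra6 by distance from the outer edge of the E15.5 section (left) and E9.5 section 2 (right), in counts per 10000 panel counts on a log axis, with exact Poisson 95% intervals. Crabp1 was highest within 50 µm of the edge in both, at 240 in the E15.5 section and 406 in E9.5 section 2, and Stra6 at the E15.5 edge was 8.50.

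The rim cells rich in Crabp1 fell mostly into cluster 9, whose mural markers Myh11 and Acta2 were low in them. Cluster 9 as a whole was mural-like, led by the smooth muscle gene Myh11 with Foxf1, Gata5, Ednra and Acta2, and stood at 77.3 per 10000 for Crabp1 (75.8 to 78.7). Its 1364 rim cells stood at 661 per 10000 (646 to 677), against 29.5 in its 9826 deeper cells, and 74.1% of the rim cells held Crabp1. These 1364 cells held 10.7% of the Crabp1 counts of the section. In them Myh11 was 14.5 per 10000, against 223 deeper, Foxf1 was 6.97 against 117, and Acta2 was 7.72 against 94.8. The matrix gene Dcn, a fibroblast marker, was 411 per 10000 in the rim cells, against 153 deeper, Nt5e was 25.8 against 1.67, and the mesenchyme gene Prrx1 was 30.8 against 21.9. The rim cells of cluster 9 thus had low levels of Myh11 and Acta2 and high Dcn. Rgs5 and Pdgfrb, the other mural markers raised in cluster 9, are not given for the rim cells here. Whether the mural-like name holds for these cells thus rests on part of its markers.

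Other populations at the rim also carried Crabp1 above their deeper cells. Cluster 11, led by Wnt4 and the epithelial gene Spint2, stood at 98.0 per 10000 in its rim cells, against 11.8 deeper. Cluster 1, led by Dcn, Dkk2, Fibin, Cd248 and Sfrp2, stood at 118 at the rim, against 35.9 deeper, and the endothelium-like cluster 5 at 200, against 34.7. The higher rim level was thus not limited to the cells of cluster 9. The part that RNA of neighbouring cells, read into a cell by its segmented outline, had in these levels was not tested.

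Away from the rim, Crabp1 was high in a neuron-like population. Cluster 3, led by Meis2, Reln, Stmn2, Tubb2b and Scn3a, held 16.8% of Crabp1 counts at 55.0 per 10000 (54.0 to 56.1), while the other neuron-like population, cluster 6, stood at 14.2. Within cluster 3 the level was again local: a patch of 3 squares at x 3.60 to 4.00 mm and y 6.40 to 6.80 mm, where 87.8% of the Crabp1 counts came from cluster 3, reached 188 per 10000 and held 4.84% of all Crabp1 counts. Reln was 6.80-fold and Meis2 5.29-fold above the rest of the section there. Stra6 in that patch was 10.8 per 10000.

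Mesenchymal and endothelium-like populations held Crabp1 at middling levels and much of its total. Cluster 1 held 18.0% of Crabp1 counts at 40.1 per 10000, the mesenchyme-like cluster 8 held 9.5% at 39.2, and the endothelium-like cluster 5 held 9.51% at 38.4. These 3 levels and that of cluster 11 at 40.8 followed one another in the order with overlapping intervals. The highest cluster level of Crabp1, 88.5 per 10000 (83.9 to 93.3), belonged to cluster 13, led by Gadd45g, Prc1, Cenpf, Cdc20 and Myo10, whose cells had a median of 29 counts and which held only 2.11% of Crabp1 counts. A patch of 2 squares at x 0.803 to 1.20 mm and y 5.20 to 5.58 mm, a median of 403 µm from the edge, stood at 299 per 10000 (273 to 327) and drew 86.5% of its Crabp1 counts from cluster 13. Stra6 in that patch was 43.4 per 10000. With cells of at least 30 counts, the highest Crabp1 cluster level was 102, and with a coarser clustering it was 56.2. The lowest cluster was the Car2-led cluster 2, at 1.66 per 10000.

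**Figure D4:**
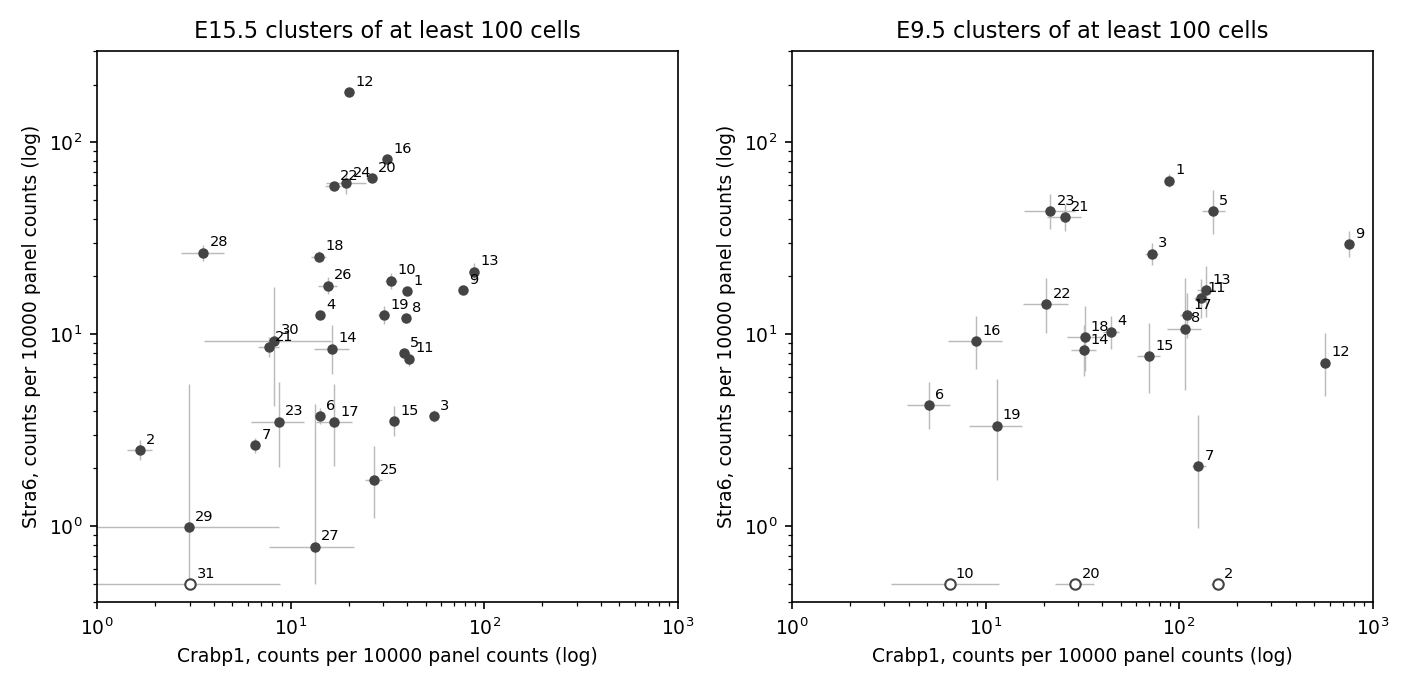
Levels of Crabp1 (x axis) and Stra6 (y axis) in each cluster of at least 100 cells at E15.5 (left) and E9.5 (right), in counts per 10000 panel counts on log axes, with exact Poisson 95% intervals as grey lines and open circles at the lower axis for clusters with 0 Stra6 counts. Cluster numbers are separate for the 2 stages. At E15.5 cluster 12 had Stra6 at 183 and Crabp1 at 20, and at E9.5 cluster 9 had Crabp1 at 756 and Stra6 at 29.6.

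Cells with high counts showed the same split. At E15.5 2699 cells held at least 5 counts of Crabp1, of which 869 lay within 100 µm of the edge, and 1535 cells held at least 5 counts of Stra6, of which 2 lay that close to the edge. Cluster 9 supplied 619 of the Crabp1 cells, 520 of them at the rim, followed by cluster 3 with 544 and cluster 1 with 480. Cluster 12 supplied 694 of the Stra6 cells (45.2%) and cluster 16 supplied 276 (18.0%). In E9.5 section 2, 575 cells held at least 5 counts of Crabp1 and 84 held at least 5 of Stra6. In E9.5 section 1 these numbers were 37 and 2.

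At E9.5 the highest Crabp1 levels belonged to 2 populations, an order that rests on section 2. The 2 richest of 41 squares of 200 µm in E9.5 section 2 held 20.7% of its Crabp1 counts, a rank of 63 of 274 genes, and 9.17% of its Stra6 counts, a rank of 184, against a median of 11.8% over genes. With squares of 100 µm the shares were 28.0% and 29.6%, against a median of 15.6%, so the concentration of Stra6 there changed with the size of the squares. The cells of the 2 sections were grouped into 26 clusters, numbered separately from those at E15.5, and 23 of them had at least 100 cells. Cluster 9 held 33% of the E9.5 Crabp1 counts at 756 per 10000 (733 to 779). Its leading genes included Fabp7, a gene of neural progenitors, Cytl1 and Tubb2b, and its cells lay at a median of 50 µm from the edge. The level was 188 per 10000 in the 51 cells of section 1 and 815 in the 293 cells of section 2, so it differed by section but was above the section level in both.

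Cluster 12 at E9.5 held 18.2% of Crabp1 counts at 568 per 10000 (545 to 591), with 228 in section 1 and 593 in section 2. In section 1 cluster 13 also stood at 228 (190 to 271) and cluster 11 at 192, level with clusters 12 and 9 within their intervals. The leading genes of cluster 12, Fam89a, Chst1, Sema3g, Serpinf1 and Heyl, named no cell type of the lists. In section 2, 31.6% of the nearest cells of cluster 12 belonged to cluster 1, against 10% of all cells of the section. The next cluster in the order, cluster 2, stood at 158 per 10000, and 88.3% of its cells lay in areas of low Gnas. Crabp1 was lowest in cluster 6, led by the muscle gene Acta2, at 5.10 per 10000.

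Stra6 at E9.5 was highest in cluster 1, which also had Foxd1 as its leading gene. The cluster held 35.7% of the E9.5 Stra6 counts at 63.2 per 10000 (58.7 to 68.0), with 110 (52.6 to 202) in the 9 cells of section 1 and 62.8 in the 634 cells of section 2. Foxd1 was followed by the chemokine gene Cxcl12, Nrp2, Cd248 and Hoxa5. Without the areas of low Gnas the level was 74.8. Next came clusters 5 at 43.8, 23 at 43.8 and 21 at 40.8, with overlapping intervals. Clusters 2, 10 and 20 had 0 Stra6 counts, but 88.3%, 99.4% and 73.3% of their cells lay in areas of low Gnas, where the Stra6 level of each section was lower, as given above. By distance from the edge of E9.5 section 2, Crabp1 stood at 406 per 10000 within 50 µm, 147 from 50 to 100 µm, 79.3 from 100 to 200 µm, 141 from 200 to 300 µm and 32.6 from 300 to 500 µm. The zone from 200 to 300 µm held 24.7% of its Crabp1 counts, so the level did not fall steadily with depth. Stra6 in the same zones stood at 27.5, 20.8, 19.6, 18.7 and 14.6 per 10000.

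**Figure D5:**
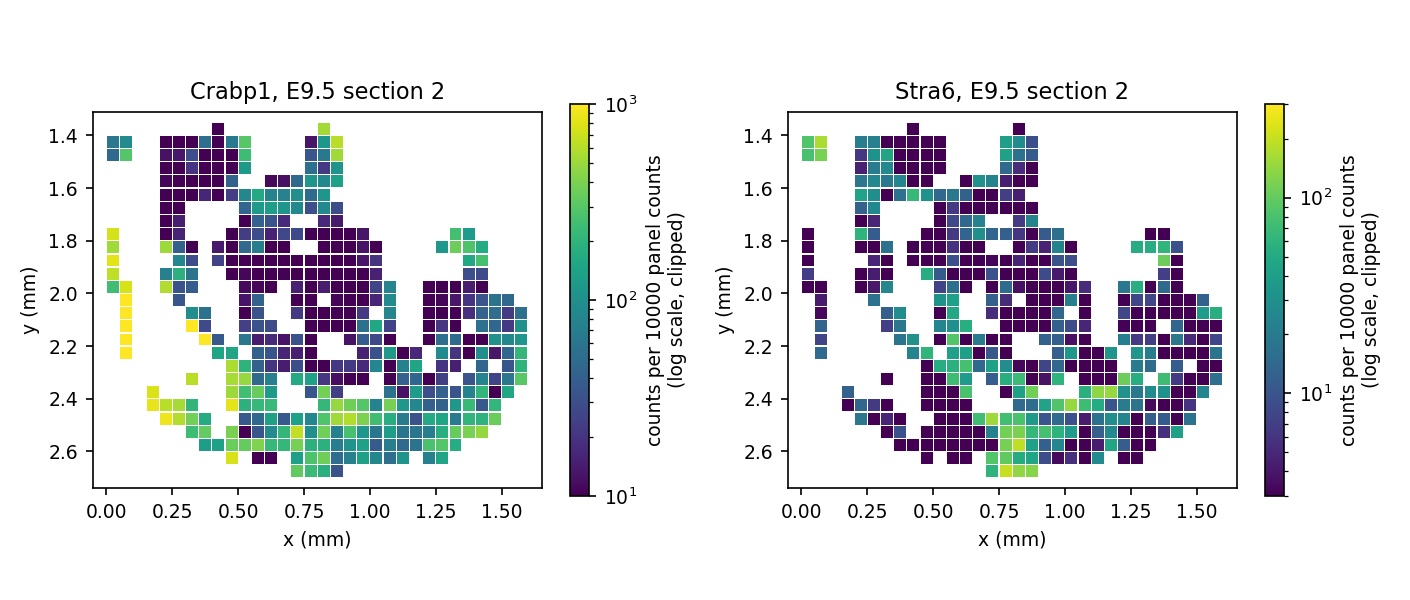
Maps of Crabp1 (left) and Stra6 (right) over E9.5 section 2 in squares, with x and y in mm and colour giving counts per 10000 panel counts on a clipped log scale. Crabp1 was highest along the edge at low x, where cells of cluster 9 lay at a median of 0.0922 mm in x, and Stra6 was higher at high y, where cells of cluster 1 lay at a median of 2.44 mm in y and 200 µm from the edge.

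Positions were also read from markers alone, without clusters. Limb-type mesenchyme was represented by Prrx1 and Prrx2, transcription factors of limb and craniofacial mesenchyme. The 4615 E15.5 cells with 2 or more counts of these genes together had Crabp1 at 59.4 per 10000 (57.9 to 61.0), against 30 in other cells, and 44.4% of them held it. The 975 such cells of E9.5 section 2 had Crabp1 at 52.1 per 10000, against 143 in other cells. The Crabp1 difference thus had opposite directions in the E15.5 section and E9.5 section 2. In E9.5 section 2 Prrx2 had 4366 counts, against 569 of Prrx1. At E9.5 Prrx2 was also raised in cluster 6, with the heart genes Tbx20, Gata4 and Gata5, and in heart-like cluster 16. Crabp1 in these clusters was 5.10 and 8.97 per 10000. The 975 cells are thus not shown to be limb-type mesenchyme, and the part of heart cells in them was not tested. The level in the Prrx1 and Prrx2 cells themselves was 59.4 at E15.5 and 52.1 in E9.5 section 2. Stra6 in these cells was 13.7 per 10000 against 17.8 in other cells at E15.5, and 14.6 against 21 in E9.5 section 2. These are 2 of the 4 mesenchyme markers of the panel, and a rule over all 4, given further on, put Stra6 above other cells in both sections, at 25.2 against 15.2 and 30.8 against 18.2.

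Cells with counts of both Foxd1 and Zic1, 2 of the 3 meningeal markers of the panel, were taken after earlier values of these genes had been seen. A rule over all 3 markers, given further on, gave Stra6 the opposite direction at E15.5, at 11.1 per 10000 against 17.7. At E15.5 2019 such cells had Stra6 at 62.0 per 10000 (59.6 to 64.4), against 16.7 in other cells, a ratio of 3.71. In the E9.5 sections 9 and 351 such cells had Stra6 at 91.6 (45.7 to 164) and 39.7 (35.5 to 44.3), against 6.23 and 17.4 in other cells. The Stra6 level was higher in the cells with Foxd1 and Zic1 in all 3 sections. Without the areas of low Gnas the E9.5 levels were 141 and 64.7, against 8.89 and 22.7. Crabp1 was 27.4 per 10000 in these cells at E15.5, against 31.3 in other cells, and 66.6 and 96.0 at E9.5, against 107 and 118. At E9.5 these markers were not particular to meninges. Cluster 3, led by the paraxial mesoderm gene Tcf15 (6.98-fold), had Foxd1 5.23-fold and Zic1 3.19-fold above other cells. Zic1 was also raised in the Fabp7-led cluster 9. The E9.5 cells with both genes are thus not shown to be the same cell type as those at E15.5.

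Crest derivatives could be read from a single gene, since Scn7a was the only one of 12 listed crest and peripheral glia markers among the 296. The 1316 E15.5 cells with 2 or more counts of Scn7a had Stra6 at 90.9 per 10000 (87.6 to 94.3), against 16.5 in other cells, and 54.2% of them held it. Crabp1 in them was 25.1, against 31.3. The 34 such cells of E9.5 section 2 had Stra6 at 5.01 per 10000 (1.36 to 12.8), against 19.3, and in section 1 there were 4 such cells. Scn7a itself stood at 6.07 per 10000 in the section 2 areas of low Gnas, against 2.19 elsewhere, and outside those areas 8 such cells had 0 Stra6 counts (0 to 13.2 per 10000), against 25.2 in other cells. Early neural crest, in which Crabp1 is best known, could not be told from other cells with this marker.

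In neural cells the Crabp1 levels of the 2 stages lay far apart. The 7432 E15.5 cells with 2 or more counts of Fabp7 had Crabp1 at 33.7 per 10000 (32.7 to 34.8), against 31.1 in other cells, and 26.5% of them held it. The 21 such cells of E9.5 section 2 had Crabp1 at 781 per 10000 (718 to 849), against 111 in other cells, and 90.5% of them held it. Stra6 in the Fabp7 cells of the E15.5 section was 27.8 per 10000, against 17.0 in other cells. The panel held 2 neural progenitor markers, Fabp7 and Slc1a3. A rule over both, given further on, took 830 E15.5 cells, with Stra6 at 6.25 per 10000 and Crabp1 at 19.3. Both lay below the section levels of 17.6 and 31.2, opposite in direction to the Fabp7 cells. Fabp7, also a gene of glia, led cluster 15, where Crabp1 was 34.1 and Stra6 3.53 per 10000, and it stood at 101 per 10000 in the Scn7a-led cluster 16. Cells with 2 or more counts of Tubb2b, a tubulin gene of young neurons, had Crabp1 at 36.0 per 10000 at E15.5, against 29.8 in other cells. At E9.5 they stood at 165 (8 cells) and 309 (135 cells), against 105 and 105. Stra6 in the Tubb2b cells was 15.2 at E15.5, against 18.3, and 39.2 and 21.9 at E9.5, against 7.13 and 19.0.

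The same question was put to marker gates in a replicated test. A cell entered a gate when it held at least 3 counts over the panel markers of a class, from at least 2 of them, and more than of any other class. The panel held 4 of 17 mesenchyme markers, 3 of 14 meningeal markers, 5 of 11 neuron markers and 6 of 12 endothelium markers. edgeR compared section sums inside and outside a gate with the section as a block. Neither gene passed an adjusted p of 0.05 in any of the 4 gates. Of all 296 genes, 2.03% passed for mesenchyme, 3.38% for meninges, 2.70% for neurons and 7.77% for endothelium. For the interaction of gate and stage 0% passed for mesenchyme (7 genes at an unadjusted p under 0.05), 5.41% for meninges, 1.01% for neurons and 0% for endothelium (19 genes unadjusted), and Crabp1 and Stra6 were not among them.

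In the neuron gate Crabp1 was 37.6 per 10000 at E15.5, against 29.4 in other cells, and 274 and 557 at E9.5, against 104 and 108. It was higher inside the gate in all 3 sections, with a log2 difference of 1.34 (SE 0.89, edgeR adjusted p = 0.515), though E9.5 section 1 had only 5 gated cells. In the endothelium gate Crabp1 was 24.5 per 10000 at E15.5, against 31.6, and 87.5 and 62.9 at E9.5, against 106 and 119, a log2 difference of -0.64 (SE 0.38, edgeR adjusted p = 0.370). In the mesenchyme gate Crabp1 was 45.6 per 10000 at E15.5, against 26.8, and 14.2 and 94.6 at E9.5, against 124 and 118. Its direction differed between stages, with a log2 difference of -0.35 (SE 0.71, edgeR adjusted p = 0.870) that became 0.55 without E9.5 section 1. In the meninges gate Crabp1 was 13.5 per 10000 at E15.5, against 31.5, and 54.3 and 109 at E9.5, against 106 and 116.

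Stra6 came nearest to a difference in the meninges gate, in opposite directions by stage. It stood at 11.1 per 10000 in the 1390 gated cells at E15.5, against 17.7 in other cells, and at 90.6 and 41.2 in the 4 and 171 gated cells at E9.5, against 7.06 and 18.3. Without the areas of low Gnas the value of section 2 was 63.4. The log2 difference over all sections was 1.25 (SE 0.68, edgeR adjusted p = 0.520). This E15.5 direction was opposite to that in the cells with both Foxd1 and Zic1. The gate also counts Col15a1, which was lower in the Stra6-rich cluster 12 than in other cells. At E9.5 the gated cells are not shown to be meningeal, since Foxd1 and Zic1 were also raised in the Tcf15-led cluster 3. In the mesenchyme gate Stra6 was 25.2 per 10000 at E15.5, against 15.2, and 0 and 30.8 at E9.5, against 9.25 and 18.2, with a log2 difference of 0.26 (SE 0.78, edgeR adjusted p = 0.911) that was -0.54 without E9.5 section 2 and -0.00367 without the areas of low Gnas. Only 49 gated cells stood behind the value of 0 in section 1. In the endothelium gate Stra6 was 22.2 per 10000 at E15.5, against 17.4, and 0 and 6.78 at E9.5, against 7.87 and 19.8, and its log2 difference of -0.67 (SE 0.63, edgeR adjusted p = 0.653) was 0.0684 without E9.5 section 2.

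Inside the gates the stages did not differ past the threshold for either gene. The log2 change of Crabp1 from edgeR, E15.5 over E9.5, was -2.75 (SE 1.29, adjusted p = 0.286) in the neuron gate, where 4.39% of 296 genes passed. It was -1.96 (SE 1.63, adjusted p = 0.638) in the meninges gate, where 5.80% of 276 genes passed, -1.33 (SE 1.46, adjusted p = 0.912) for endothelium and -0.28 (SE 1.29, adjusted p = 0.980) for mesenchyme. For Stra6 the changes from edgeR were 2.05 (SE 1.47, adjusted p = 0.872) for endothelium, 0.67 (SE 1.44, adjusted p = 0.980) for mesenchyme, -0.35 (SE 1.34, adjusted p = 0.949) for neurons and -1.56 (SE 1.61, adjusted p = 0.778) for meninges. In the mesenchyme and endothelium gates 0% of genes passed in edgeR, where 22 and 21 of 296 had an unadjusted p under 0.05, and no other tool was run there. The Crabp1 change in mesenchyme was 1.36 without E9.5 section 2, and the Stra6 changes were -0.24 in mesenchyme without section 1 and 1.32 in neurons without section 2.

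Few cells held both genes, and the share of cells with both changed with the depth at which cells were compared. Cells with both made up 2.04% of kept cells at E15.5, against 2.41% and 8.46% at E9.5. At E15.5 21.9% (21.3 to 22.5, Clopper-Pearson) of Stra6 cells held Crabp1, against a share of 15.3 to 15.6% among cells without Stra6. In the E9.5 sections 54.1% (36.9 to 70.5) and 53.8% (50.6 to 56.9) of Stra6 cells held Crabp1, against 38.0% and 37.5% of cells without Stra6. The share was higher among Stra6 cells in every section. Deep cells are more likely to hold any gene, so each cell was thinned to 50 counts, leaving 136001 cells at E15.5 and 494 and 5073 at E9.5. Then 9.07% of Stra6 cells held Crabp1 at E15.5, against 10.9% of cells without Stra6. At E9.5 the thinned shares were 46.7% and 29.9%, against 31.5% and 25.7%, with intervals that overlapped in section 1 (21.3 to 73.4 against 27.4 to 35.9) and section 2 (25.5 to 34.7 against 24.5 to 27.0).

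At higher counts the overlap at E15.5 was small. Of the 1535 E15.5 cells with at least 5 counts of Stra6, 11 (0.717%, 0.358 to 1.28) also had at least 5 of Crabp1, against 1.38% of other cells. Of 84 such cells in E9.5 section 2, 15 (17.9%, 10.4 to 27.7) had at least 5 of Crabp1, against 8.96% of other cells. In section 1 it was 0 of 2 cells (0 to 84.2%). The 808 E15.5 cells of cluster 1 with both genes were the largest group, 20.2% of all such cells, and cluster 16 had the highest share, with 460 of its cells (18.6%).

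The clusters differed in whether the genes met in the same cells. In cluster 12, the richest in Stra6, 10% of Stra6 cells held Crabp1, against 20.1% of the cells of that cluster without Stra6. In clusters 16 and 20 the shares ran the other way, with 40.5% against 26.3% and 32.5% against 18.0%. In cluster 13, which had the highest Crabp1 level, they were 41.3% against 6.90%. In cluster 1 they were 26.0% against 26.5%, within each other's intervals. In E9.5 section 2, 172 of the 536 cells with both genes (32.1%) belonged to the Foxd1-led cluster 1, where 27.1% of all cells held both. Cells of a cluster share a section, so these shares are descriptions.

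Across the 31 E15.5 clusters, the genes whose levels ranked most like Crabp1 were Sfrp2 (Spearman 0.81), Ackr3 (0.75), Pcdh18 (0.60), Mfap2 (0.56) and Mecom (0.52). Sfrp2 encodes a secreted Wnt modulator and Ackr3 a receptor that takes up the chemokine Cxcl12. Those most like Stra6 were Col4a1 (0.64), Mfap2 (0.60), Sept6 (0.59), Myh11 (0.56) and Foxp1 (0.55). Crabp1 and Stra6 had a correlation of 0.34 with each other. Across the 860 squares the genes most like Crabp1 were Il6st (0.62), Pcdh18 (0.60), S100a10 (0.58), Anxa2 (0.54) and Prrx1 (0.53). Those most like Stra6 were Il6st (0.42), Col4a1 (0.40), Nid2 (0.37), Dkk2 (0.36) and Pltp (0.35), and the correlation of Crabp1 with Stra6 was 0.30. All these clusters and squares come from the same section and share its depth and cell segmentation.

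Of 30 genes of retinoid transport, signalling and known targets, 8 were among the 296, including Crabp1, Stra6, Hoxa5, Meis2, Nr2f2, Dkk2 and Fabp5. By edgeR 0 of the 8 passed the stage test in either direction, with 1 at an unadjusted p under 0.05 (Crabp1), while DESeq2 called 2, Crabp1 lower and Meis2 higher at E15.5. Over all genes DESeq2 called 31.1% of 296, with 46 higher and 46 lower. By edgeR the median log2 change of the 8 retinoid genes was -0.01, against -0.15 over all genes. Meis2, a retinoic acid-responsive homeobox gene in the limb, was at 15943 normalised CPM in the E15.5 section, against 6484 and 8091 at E9.5 (log2 change 1.13, edgeR adjusted p = 0.216), and Hoxa5 at 1927, against 973 and 388 (1.53, edgeR adjusted p = 0.356). Both had E15.5 values above the range of the E9.5 sections. In the E9.5 areas of low Gnas, Meis2 stood at 10.9 and 18.3 per 10000, against 105 and 116 in the other areas. Without the areas of low Gnas the log2 change was 0.45 for Meis2 and 1.04 for Hoxa5.

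Nr2f2, an orphan nuclear receptor gene, was at 1116 normalised CPM at E15.5, against 930 and 2795 at E9.5 (log2 change -0.75, edgeR adjusted p = 0.715). Dkk2, a secreted Wnt inhibitor, was at 1565, against 1746 and 1110 (0.14, edgeR adjusted p = 0.953), and Fabp5, which can carry retinoic acid, at 352, against 401 and 382 (-0.15, edgeR adjusted p = 0.951). The mesenchyme markers gave 1 higher of 4 (Dcn), the meningeal markers 0 of 3 by edgeR, with Col15a1 alone at an unadjusted p under 0.05 and called by DESeq2, and the crest marker Scn7a had a log2 change of 0.05. Of the neuron markers 4 of 5 were higher at E15.5 by edgeR, where 9.46% of all 296 genes were higher. In whole sections fewer cells of a type and less RNA per cell cannot be told apart, which holds for every stage comparison over all kept cells given here.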

How the data were processed

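MERFISH values were read for 3 sections, 1 at E15.5 and 2 at E9.5. Per the file headers, the authors deposited a table of counts per segmented cell and gene, with Blank codes beside the genes, and a table of cell volume (a signal column) and positions, read here as micrometres because the header gives no unit. Per the submitters' processing notes Scanpy and Seurat were used, with no version or role stated. How cells were segmented is not given in the sources used here.

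Here cells with at least 10 counts over 296 genes were kept and 19 Blank codes left out. Clusters (Leiden, igraph 0.11.9, resolution 1, 30 components, 15 neighbours) were made per stage from 294 genes, without Crabp1 and Stra6. A cluster was named only where at least 3 listed markers of a class were raised at least 2-fold. At least 2 markers of that class also had to be among its 10 leading genes, more than of any other class. Section sums were tested with edgeR 4.0.16 (quasi-likelihood, TMM, genes with at least 30 counts, Benjamini-Hochberg over all genes), with DESeq2 1.42.0 as an alternative, in R 4.3.3. The test was tried on simulated counts. No doublet caller was run, and cells over 3 times the median volume were left out as an alternative. The E9.5 sections came from different embryos. Depth ranged from 68572 to 21227345 kept counts per section, and intervals cover counting error only.

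The members, marker lists and tests were chosen with earlier results of these data known. Named genes were Crabp1 and Stra6, listed retinoid, meningeal, mesenchyme and crest genes on the panel, the 5 most alike by Spearman correlation and the 5 leading genes of each cluster described. Genes named for a patch were its leading ones, chosen after their values were seen, as were the marker cells. Alternatives covered the cell and gene filters, scaling, Blank subtraction, areas of low Gnas, volume, clustering resolution, thinning, square size and leaving out each E9.5 section. Class tests used marker gates, since no mesenchyme, meninges or neuron cluster was named at E9.5. Some genes that these rules name are not reported here.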

Additional observations from a re-analysis of the deposited data

Results flagged for a closer look

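In 4 cases a gene's direction inside a marker gate against other cells was opposite at E15.5 to that in both E9.5 sections. None of the 4 interaction terms of gate and stage passed the threshold in edgeR, fitted over 296 genes. Crabp1 in the mesenchyme gate was higher than in other cells at E15.5 and lower in both E9.5 sections, with an interaction log2 of 2.22 (SE 1.44, adjusted p = 0.882), in a fit where 0 genes passed, 7 had an unadjusted p under 0.05 and no other tool was run. Stra6 in the meninges gate was lower at E15.5 and higher in both E9.5 sections, with an interaction log2 of -1.96 (SE 1.53, adjusted p = 0.758). Stra6 in the neuron gate was lower at E15.5 and higher in both E9.5 sections, with an interaction log2 of -0.34 (SE 1.35, adjusted p = 0.929). Stra6 in the endothelium gate was higher at E15.5 and lower in both E9.5 sections, with an interaction log2 of 1.84 (SE 1.19, adjusted p = 0.971), in a fit where 0 genes passed and 19 had an unadjusted p under 0.05. The gates held as few as 4 to 49 cells in E9.5 section 1. There Stra6 had 1 count in the neuron gate (15.2 per 10000, 0.386 to 84.9, against 7.66 in other cells). In the endothelium gate Stra6 had 0 counts (0 to 29.3 per 10000, against 7.87). Both intervals cover the level of other cells, so section 1 settles no direction for Stra6 in these 2 gates.

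After thinning each cell to 50 counts, the share of Stra6 cells that held Crabp1 differed from the share of cells without Stra6 by -1.83 percentage points at E15.5, against 15.2 and 4.20 points in the E9.5 sections. The difference between stages was not tested.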

How the results depend on the processing

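For the stage change over all kept cells, Crabp1 kept its direction under every setting run, and DESeq2 gave -1.76 (adjusted p = 3.82e-06). Leaving out each E9.5 section gave -1.90 and -1.73. Stra6 was -0.15 without areas of low Gnas, and -0.13 and 1.22 without each E9.5 section. The count of genes higher at E15.5 was 15 after Blank subtraction, 16 without areas of low Gnas and 46 with DESeq2, against 28, and the count lower was 5 with upper-quartile scaling, 6 without areas of low Gnas and 46 with DESeq2, against 16.

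Inside gates against other cells, 36 of 40 alternatives kept the direction and no gene passed. In mesenchyme the exceptions were Crabp1 without E9.5 section 1 (0.55), and Stra6 without E9.5 section 2 (-0.54) and without areas of low Gnas (-0.00367). In endothelium the exception was Stra6 without E9.5 section 2 (0.0684). Without each E9.5 section the log2 differences ran from -0.65 to 0.55 (Crabp1) and -0.54 to 1.06 (Stra6) in mesenchyme, -1.18 to -0.11 and 0.79 to 0.89 in meninges, 0.57 to 1.57 and 0.18 to 0.58 in neurons, and -0.51 to -0.49 and -0.43 to 0.0684 in endothelium. Stage changes inside gates ran from -1.01 to 1.36 for Crabp1 in mesenchyme, -2.44 to -0.56 in meninges, -3.36 to -1.53 in neurons and -1.39 to -1.25 in endothelium. For Stra6 they were -0.24 in mesenchyme and 1.68 in endothelium, where section 1 had 0 counts and gave no value, and ran from -1.58 to -1.31 in meninges and -0.83 to 1.32 in neurons. The cause of these changes was not tested.

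With resolution 0.5 the richest cluster had 56.2 per 10000 (Crabp1) and 145 (Stra6) at E15.5, and 600 (Crabp1) at E9.5, and cells of at least 30 counts gave 102 for Crabp1 at E15.5. The share of Stra6 cells with Crabp1 was 7.72% (E15.5), 33.3% and 36.8% (E9.5) at 2 or more counts, 0.717%, 0% and 17.9% at 5 or more, and 9.07% and 29.9% (E15.5 and E9.5 section 2) after thinning. Squares of 100 µm gave 30.3% (Crabp1) and 44.2% (Stra6) in the richest 5%, and squares of 400 µm 17.5% and 31.6%. No paired analysis was possible because the 2 stages share fewer than 2 replicate numbers. Class tests on named clusters were not run. E9.5 section 1, with 68572 counts, limits every E9.5 spread.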
